A study of Danio rerio with 4 samples.

Results

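The Tie receptor system was followed through 7 genes of the 29027 genes listed per library: the receptors tie1 and tek, the angiopoietin ligands angpt1, angpt2a, angpt2b and angpt4, and the receptor phosphatase ptprb. The 7 genes were chosen by name, with earlier results of these data known, and all 7 were present in every library. Expression was measured by RNA sequencing in zebrafish embryos aged 47 hours post fertilization. The 2 libraries called tie1 Homo came from embryos homozygous for a tie1 mutation (tie1-/-) that had blood flow. The 2 libraries called tie1 WT/Het came from their tie1+/? siblings, a mixture of wild-type and heterozygous embryos, so part of this group carries a mutant copy of tie1. All embryos carried the transgenes Tg(kdrl:EGFP) and Tg(lyve1:DsRed). Cells of the trunk and tail that were positive for both reporters, and are therefore venous and lymphatic endothelial cells by that gate, were sorted. The tie1 allele and the number of embryos per library are not given in the sources used here.

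Tie1 and Tek, which is also called Tie2, are receptor tyrosine kinases found mainly on endothelial cells. Angiopoietin 1 is the ligand that activates Tek, and angiopoietin 2 activates or blocks it depending on context. Tie1 has no classical ligand of its own in mammals and modulates Tek signalling, and in mice its loss disturbs lymphatic vessels. Active Tek signals through PI3K and Akt, which keep FoxO1 out of the nucleus, and the endothelial phosphatase encoded by ptprb, known as VE-PTP, removes phosphate from Tek. The comparison of mutants with siblings shows what the RNA levels of this receptor system were when tie1 was mutated.

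The libraries differed broadly before any member was considered. The listed transcript levels (TPM, a level corrected for gene length and library size) summed to 602394 and 481065 in mutant replicates 1 and 2, and to 813042 and 736606 in sibling replicates 1 and 2. A group of 310 genes of odorant, taste and pheromone receptors and lens gamma crystallins, presumed silent in these cells, had a median of 8.41 and 11.1 TPM in the mutant libraries, against 2.26 and 3.68 TPM in the sibling libraries. The 95th percentile of these 310 genes is called the limit of a library below, and was 13.8 and 18.8 TPM in the mutants and 3.98 and 6.44 TPM in the siblings. Endothelial markers were found in all 4 libraries, but fewer in the mutants: of 18 pan-endothelial marker genes, 12 and 11 exceeded the limit in the mutants, against 17 and 18 in the siblings. Their summed level was 1782 and 584 TPM in the mutants and 5046 and 4147 TPM in the siblings. In 16 of the 18, both mutant values lay below both sibling values. Of 7 erythroid markers, 3 and 5 exceeded the limit in the mutants and 5 and 5 in the siblings. The purity of the sorted cells was not tested. The median log2 fold change of all 28301 tested genes was 1.17, and fold changes of members are also given relative to it. This median is mainly that of low genes. Of the tested genes, 20346 had a mean under 10 TPM, and in 84.3% of these both mutant values exceeded both sibling values. Among genes of at least 10 TPM this held for 18.6%, and the reverse for 41.4%.

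The mutated gene tie1, which encodes the receptor without a classical ligand, was measured at 16.7 and 10.2 TPM in the mutants, against 61.0 and 31.0 TPM in the siblings. Each mutant value was under each sibling value, so the groups did not overlap. The means were 13.4 ± 4.55 TPM in mutants and 46.0 ± 21.2 TPM in siblings (SD, n = 2 each), so the mutant mean was 0.292 of the sibling mean. On the log2(TPM + 1) scale the fold change of tie1 was -1.66 (SE 0.78, 95% interval -3.18 to -0.14) and its limma adjusted p-value was 0.0605, which misses the threshold of 0.05. Set against the all-gene median, which is mainly that of genes of lower level, the log2 difference was -2.83. The SE here is almost wholly that of genes of like level, not the spread between the replicates of tie1 itself. An exact two-sided permutation test over the 4 libraries gave p = 0.333, the smallest that 2 against 2 allow (0.389 after Benjamini-Hochberg adjustment over the 7 members). These are bulk samples, in which fewer cells that use a gene and less RNA per cell cannot be told apart.

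The remaining tie1 signal was unequal between the mutant libraries. In mutant replicate 1 tie1 was above 99.0% of the 310 presumed silent genes and 1.98 times their median. In mutant replicate 2 it was above only 35.8% of them and stood at 0.919 of their median. In both sibling libraries tie1 was above every one of these genes, at 26.98 and 8.44 times their median. The files give 1 value per gene, so they do not show whether the transcript in mutants was intact. RefSeq positions on the assembly GRCz12tu place an antisense RNA, lnc.tie1, over the tie1 gene. The processing notes of these libraries name another build, GRCz11. Whether the counting used strand is not given in the sources used here, so reads of the 2 genes cannot be told apart.

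The second receptor, tek, fell to 9.80 and 10.6 TPM in the mutants, against 49.8 and 24.1 TPM in the siblings; the direction of its log2 fold change turned only when the libraries were centred on pan-endothelial markers, to 0.31. The groups did not overlap, and the mutant libraries lay close together while the sibling libraries differed. The means were 10.2 ± 0.54 TPM in mutants and 36.9 ± 18.2 TPM in siblings (SD, n = 2 each). The log2 fold change was -1.67 (SE 0.74, 95% interval -3.12 to -0.23, adjusted p-value 0.0485 by limma), or -2.84 relative to all genes. Both mutant values were under the limit of their library, at the 69.4th and 41.3rd percentile of the presumed silent genes, whereas both sibling values were above it. Leaving out a mutant library hardly changed the log2 fold change, which was -1.62 without mutant replicate 1 and -1.72 without mutant replicate 2. It was -1.16 without sibling replicate 1 and -2.18 without sibling replicate 2. The limma call was lost without either mutant replicate and without sibling replicate 1, in fits that leave 1 library in a group.

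The phosphatase gene ptprb had 15.6 and 12.6 TPM in the mutants, against 16.9 and 24.1 TPM in the siblings. Both mutant values lay below both sibling values, with a narrow gap of mutant replicate 1 to sibling replicate 1. The means were 14.1 ± 2.08 TPM in mutants and 20.5 ± 5.06 TPM in siblings (SD, n = 2 each), and the log2 fold change of -0.50 (SE 0.72, 95% interval -1.91 to 0.91) did not pass the threshold (adjusted p-value 0.553 by limma). RefSeq places rab3ip, a gene of vesicle transport, over part of ptprb. It had 8.57 and 21.1 TPM in mutants and 10.9 and 11.6 TPM in siblings. The part that shared reads have in the ptprb values was not tested.

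**Figure D1:**
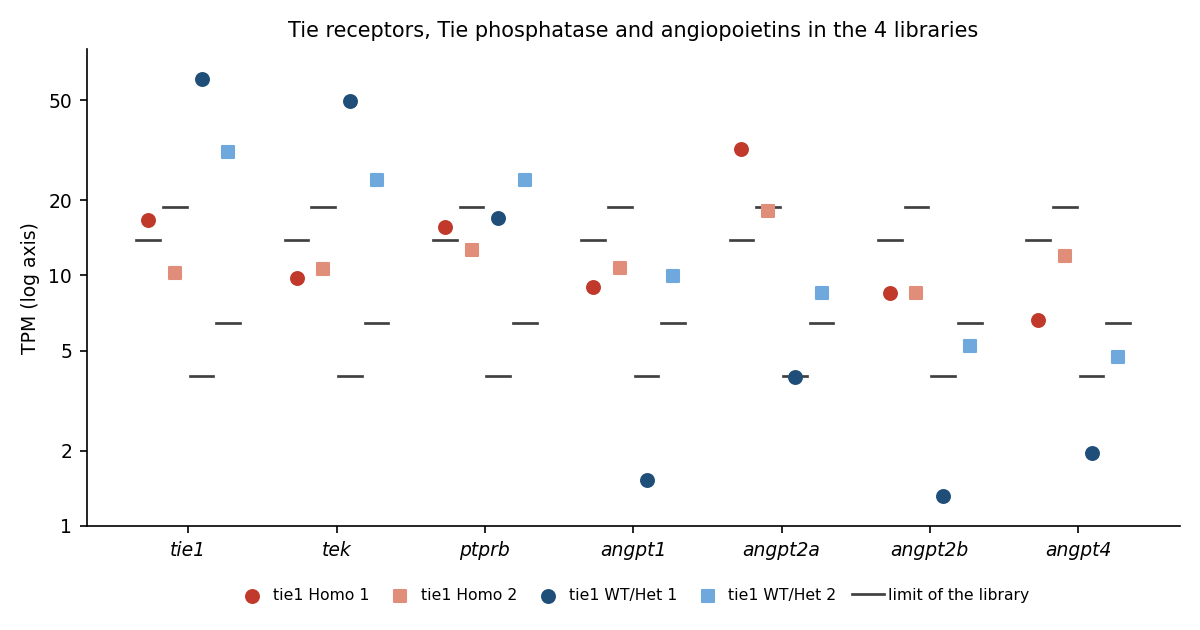
TPM (log axis) of the 7 members in the 2 tie1 Homo libraries (red) and the 2 tie1 WT/Het libraries (blue); circles are replicate 1, squares replicate 2, and each short bar is the limit of that library. For tie1, tek and, with a narrow gap, ptprb both red points lie below both blue points, and for angpt2a, angpt2b and angpt4 both lie above.

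Among the ligand genes, angpt2a, which encodes an angiopoietin 2 of zebrafish, rose to 32.0 and 18.1 TPM in the mutants, against 3.94 and 8.50 TPM in the siblings. Its direction was the same under 5 other scalings of the libraries. The remaining alternative settings could not turn it, because both mutant values exceeded both sibling values. The groups did not overlap, and mutant replicate 1 was the highest of the 4 libraries. The means were 25.1 ± 9.83 TPM in mutants and 6.22 ± 3.22 TPM in siblings (SD, n = 2 each), a 4.03-fold higher mean. The log2 fold change was 1.88 (SE 0.66, 95% interval 0.58 to 3.17, adjusted p-value 0.0224 by limma), and 0.71 relative to all genes. It exceeded 95.04% of the fold changes of all tested genes. In mutant replicate 1 angpt2a was above all 310 presumed silent genes at 3.81 times their median. In mutant replicate 2 it was above 93.9% of them, just under the limit, and in the siblings above 94.8% and 99.0%. The call was lost without mutant replicate 1 (adjusted p-value 0.144 by limma), without mutant replicate 2 (0.126) and without sibling replicate 1 (0.251), and it stood at 0.0197 without sibling replicate 2.

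RefSeq lists the genes mcph1 and agpat5 over the angpt2a gene. The chromosome condensation gene mcph1 had 8.79 and 9.53 TPM in mutants and 2.54 and 5.51 TPM in siblings, with a log2 fold change of 1.08 (SE 0.54, adjusted p-value 0.0794 by limma). The acyltransferase gene agpat5 had 6.96 and 8.79 TPM in mutants and 1.87 and 21.7 TPM in siblings. Neither reached the level of angpt2a in a mutant library, and the part that shared reads have in the angpt2a values was not tested.

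The gene of the activating ligand, angpt1, had 8.999 and 10.7 TPM in the mutants, against 1.52 and 9.97 TPM in the siblings. The groups overlapped, because sibling replicate 2 lay between the mutant libraries, and only sibling replicate 1 was low. The means were 9.87 ± 1.23 TPM in mutants and 5.75 ± 5.98 TPM in siblings (SD, n = 2 each). The log2 fold change was 1.04 (SE 0.56, 95% interval -0.05 to 2.13, adjusted p-value 0.0969 by limma), which is -0.12 relative to all genes. Sibling replicate 2 alone had angpt1 above its limit. The value rested on single sibling libraries: the log2 fold change was -0.02 without sibling replicate 1 and 2.104, with a limma adjusted p-value of 0.00792, without sibling replicate 2.

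The paralogue angpt2b rose to 8.54 and 8.51 TPM in the mutants, against 1.32 and 5.22 TPM in the siblings (log2 fold change 1.33, SE 0.53, adjusted p-value 0.0333 by limma). The ligand gene angpt4 rose to 6.65 and 11.9 TPM in the mutants, against 1.95 and 4.74 TPM in the siblings (log2 fold change 1.27, SE 0.53, adjusted p-value 0.0397 by limma). In both genes the groups did not overlap, but all 8 values were under the limit of their library. Relative to all genes the log2 differences were 0.16 for angpt2b and 0.11 for angpt4, so these genes moved with the bulk of the genes. Both calls were lost on leaving out mutant replicate 1 (0.155 for angpt2b and 0.107 for angpt4), mutant replicate 2 (0.317 and 0.412) or sibling replicate 1 (0.440 and 0.323), as limma adjusted p-values. Without sibling replicate 1 the log2 fold change was 0.62 for angpt2b and 0.79 for angpt4, and without sibling replicate 2 it was 2.04 and 1.75.

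Mural cells and fibroblasts are a known source of angiopoietin 1, so their markers were read beside the ligands. The sort for both endothelial reporters would be expected to leave such cells out. The 17 markers of these cells summed to 396 and 260 TPM in the mutants and to 345 and 340 TPM in the siblings, with 5 and 2 above the limit in the mutants and 8 and 8 in the siblings. None of the 17 was at 0 in any library. Their part in the ligand values was not tested.

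Of the 7 members, 3 were called higher and 1 was called lower in the mutants. Over all tested genes, 44.6% were called higher and 4.43% were called lower. These shares depended strongly on level, so they were also taken for genes above and below a mean of 10 TPM over the 4 libraries, where 4 and 3 of the members lie. Among genes of at least 10 TPM, which include tie1, tek, ptprb and angpt2a, 9.87% were called higher and 15.4% lower. Of these members, angpt2a passes 10 TPM only through the mutants, with means of 25.1 TPM there and 6.22 TPM in the siblings. By its sibling mean it would stand among the genes under 10 TPM, so the 9.87% does not show its call to be unusual. Among genes under 10 TPM, which include angpt1, angpt2b and angpt4, 58.2% were called higher and 0.152% lower. The calls of angpt2b and angpt4 are thus the commonest outcome at their level. The groups did not overlap for 6 of the 7 members, 3 higher and 3 lower. Over all tested genes they did not overlap for 65.8% higher and 12.0% lower, and for genes of at least 10 TPM for 18.6% higher and 41.4% lower. For genes under 10 TPM they did not overlap for 84.3% higher and 0.541% lower. A receptor gene with both mutant values below both sibling values was therefore a frequent pattern at the level of tie1 and tek.

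**Figure D2:**
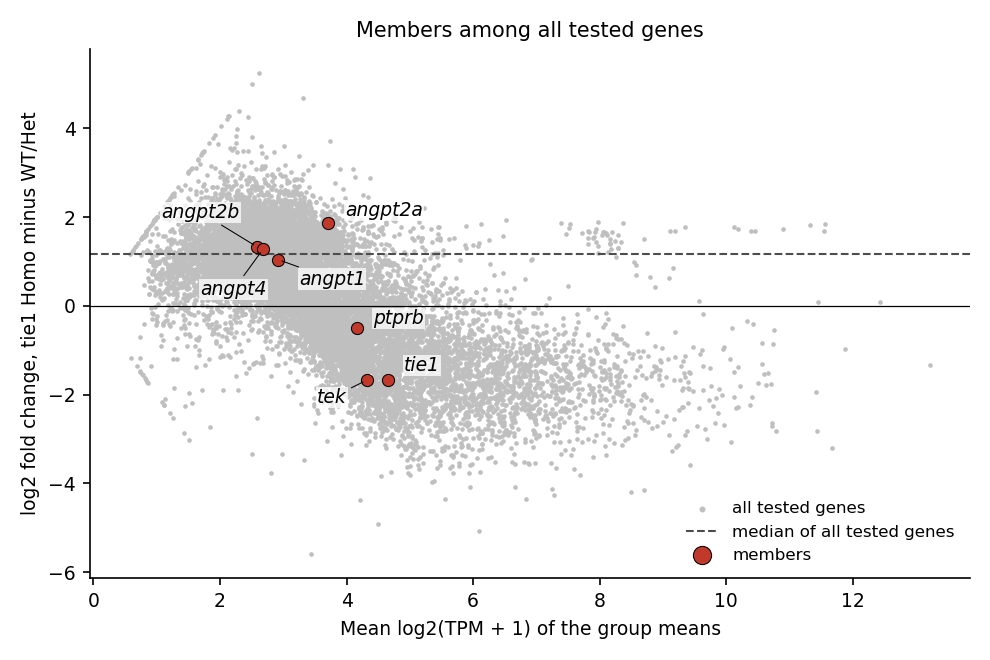
Log2 fold change (mutants minus siblings) against the mean log2(TPM + 1) of the group means for all 28301 tested genes (grey), with the 7 members in red and the median of all genes, 1.17, as a dashed line. The members angpt1, angpt2b and angpt4 sit in the dense cloud of low genes near the dashed line, angpt2a at the upper edge, and tie1 and tek where the more abundant genes turn negative.

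The order of the members by level, which TPM allows since it is corrected for length, differed between the groups. In the siblings tie1 was the most abundant member in both libraries, followed by tek and ptprb in replicate 1 and by ptprb and tek in replicate 2. In the mutants angpt2a was the most abundant member in both libraries, and tie1 came 2nd in replicate 1 and 6th in replicate 2. In mutant replicate 1, 3 members were above the limit. In mutant replicate 2 all 7 were under it, angpt2a included, so the order there lies within the range of the presumed silent genes. By group means the mutant order was angpt2a, ptprb, tie1, tek, angpt1, angpt4 and angpt2b, and the only neighbours whose values did not overlap over the libraries were angpt2a and ptprb. By group means the sibling order was tie1, tek, ptprb, angpt2a, angpt1, angpt4 and angpt2b, and the only such neighbours were ptprb and angpt2a. The values of tie1 and tek overlapped over the sibling libraries, although tie1 exceeded tek within each of them.

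A percentile within a library does not change with the scale of that library. Among all listed genes tie1 stood at the 85.8th and 39.5th percentile in the mutants, against the 92.8th and 89.0th in the siblings. The receptor gene tek stood at the 70.2nd and 43.9th percentile in the mutants, against the 91.6th and 86.9th in the siblings. Both receptor genes thus ranked lower in each mutant library than in either sibling library. For ptprb the percentiles were 84.9 and 67.0 in the mutants and 83.0 and 86.9 in the siblings, which overlap. For angpt2a they were 91.4 and 88.6 in the mutants and 65.6 and 74.2 in the siblings, so it ranked higher in each mutant library. The percentiles of angpt1 (62.8 and 46.0 in mutants, 15.1 and 76.8 in siblings), of angpt2b (57.5 and 22.1 in mutants, 11.1 and 62.6 in siblings) and of angpt4 (29.9 and 60.1 in mutants, 28.5 and 58.2 in siblings) overlapped or nearly coincided between the groups.

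**Figure D3:**
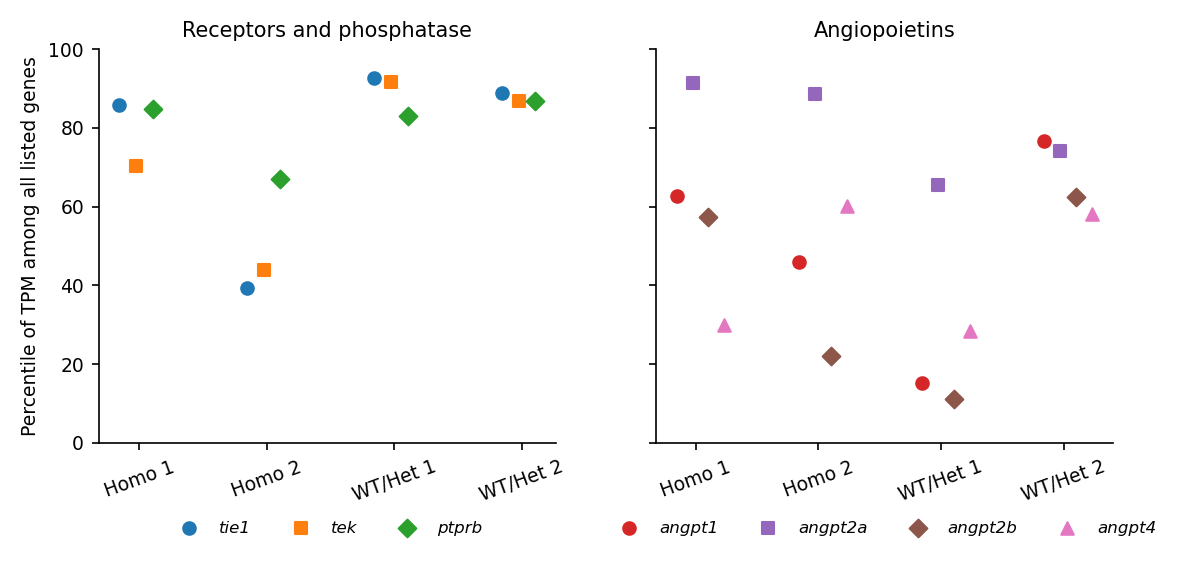
Percentile of each member's TPM among all 29027 listed genes in each library, receptors and phosphatase on the left and angiopoietins on the right. In the mutants tie1 and tek stand below their sibling positions, most in mutant replicate 2, and angpt2a stands at the 91.4th and 88.6th percentile, above its sibling positions.

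Among 59 receptor tyrosine kinase genes, including tie1 and tek, tie1 ranked 4th and 46th in the mutant libraries, against 3rd and 4th in the siblings. The gene tek ranked 13th and 42nd in the mutants and 5th in both siblings. Mutant replicate 2 accounts for the lowest ranks of both genes. In that library both were under the limit, and of the other 57 kinase genes only 1 exceeded it.

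Ratios within a library were then formed between members, and between members and cdh5, the gene of the endothelial junction protein VE-cadherin. In both mutant libraries tek was under the limit, and in mutant replicate 2 tie1 and ptprb were too. Mutant ratios that hold these values are thus partly ratios of levels like those of the presumed silent genes. The ratio of tie1 to tek was 1.699 and 0.967 in the mutants and 1.23 and 1.29 in the siblings. The mutant ratios enclosed the sibling ratios, and the log2 difference was 0.01 (exact permutation p = 1, two-sided). Mutant replicate 2 gave a lower ratio and mutant replicate 1 a higher one than the siblings: the difference was 0.39 without mutant replicate 2 and -0.37 without mutant replicate 1. The ratio of ptprb to tek was 1.59 and 1.19 in the mutants and 0.340 and 1.00 in the siblings, higher in both mutant libraries, with a log2 difference of 1.18. Here sibling replicate 1 decided the size, since the difference was 0.43 without it; it was 1.93 without sibling replicate 2.

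Against cdh5, tie1 was at 0.460 and 0.330 in the mutants and at 0.885 and 0.538 in the siblings (log2 difference -0.77). For tek the ratio to cdh5 was 0.270 and 0.341 in the mutants and 0.722 and 0.417 in the siblings (log2 difference -0.78). Both receptors were thus low relative to cdh5 in each mutant library. The limit matters here too: tek was under it in both mutant libraries, and tie1 in mutant replicate 2. Without sibling replicate 1 these differences were -0.42 for tie1 and -0.40 for tek. The ratio of angpt2a to angpt1 was 3.56 and 1.69 in the mutants and 2.59 and 0.852 in the siblings, and overlapped. For that ratio, angpt1 was above the limit only in sibling replicate 2. Of the 5 ratios compared, exact two-sided permutation tests gave p = 0.333 for the ratios of ptprb to tek, of tie1 to cdh5 and of tek to cdh5, the smallest 2 against 2 allow, and each was 0.556 after Benjamini-Hochberg adjustment.

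A single gene such as cdh5 may be a poor measure of endothelial RNA, so each member was also set against the mean log2(TPM + 1) of 18 pan-endothelial markers. On this scale tie1 stood at -1.22 and -1.22 in the mutants and at -1.09 and -1.99 in the siblings. Both mutant values of tie1 thus lay between the sibling values, and the difference was 0.32 (SE 0.82, 95% interval -1.29 to 1.92, adjusted p-value 0.720 by limma). For tek the values were -1.93 and -1.17 in the mutants and -1.38 and -2.34 in the siblings, a difference of 0.31 (SE 0.83, 95% interval -1.32 to 1.94, adjusted p-value 0.733 by limma). These intervals are wide and include a fall as well as a rise of more than 2-fold. The limit matters on this scale too. In the mutants tek was under it in both libraries and tie1 in replicate 2, and only 12 and 11 of the 18 markers exceeded it. Among the ligands, only angpt2a in mutant replicate 1 exceeded the limit of a mutant library. The mutant values here are thus partly distances between levels like those of the presumed silent genes. The ligand angpt2a stood at -0.32 and -0.45 in the mutants and at -4.74 and -3.74 in the siblings, a difference of 3.86 (SE 0.85, adjusted p-value 1.60e-04 by limma). The other 3 ligands had differences of 3.02 to 3.31 and all passed the threshold, and ptprb with 1.49 did not (adjusted p-value 0.0884 by limma). Passing was the commonest outcome on this scale: of all 28301 tested genes, 23410 were called higher and 45 lower. With this centring the median of all genes was 3.15, so only angpt2a, angpt2b and angpt4 exceeded it, by little in the last 2.

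**Figure D4:**
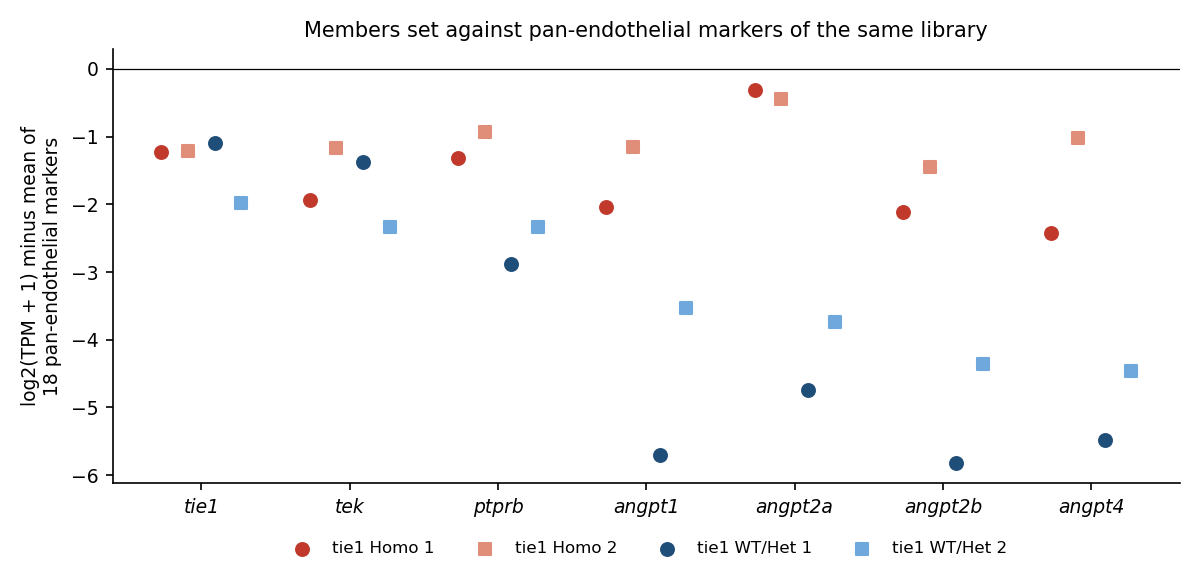
Log2(TPM + 1) of each member minus the mean of 18 pan-endothelial markers in the same library, for the tie1 Homo (red) and tie1 WT/Het (blue) libraries; 0 marks the marker mean. The receptors tie1 and tek have overlapping red and blue points, while for ptprb and the 4 angiopoietins both red points lie above both blue points.

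Since the libraries differed so much in overall level, each fold change was recomputed under 5 other scalings. With all libraries scaled by the median of ratios, the median of all genes was 0.03. The log2 fold changes were then -2.97 for tie1, -2.97 for tek, -1.79 for ptprb and 0.62 for angpt2a. The divisors of this scaling were 1.39 and 1.87 in the mutants and 0.493 and 0.771 in the siblings. They rest mainly on low genes, since 20346 of the 28301 tested genes had a mean under 10 TPM. With quantile normalization the log2 fold changes were -1.60, -1.87, -0.59 and 1.68 for the same genes. The receptors were negative and angpt2a was positive under both, while angpt1 turned to -0.09 and -0.08 and angpt2b and angpt4 were between 0.03 and 0.24. No member was called under either scaling in limma, where 0 of all genes were called (1220 higher and 4117 lower at an unadjusted p under 0.05 with the median of ratios, 1335 and 1824 with quantile normalization). After the median of the presumed silent genes was subtracted, tie1 had 8.25 TPM left in mutant replicate 1 and was below that median by 0.896 TPM in mutant replicate 2, against 58.7 and 27.4 TPM in the siblings. The gene tek had 1.40 TPM left in mutant replicate 1 and was below by 0.548 TPM in mutant replicate 2, against 47.5 and 20.4 TPM in the siblings. For angpt2a 23.6 and 7.02 TPM were left in the mutants, against 1.68 and 4.82 TPM in the siblings, so the groups still did not overlap. The limma adjusted p-values after subtraction were 0.204 for tie1, 0.0903 for tek and 0.340 for angpt2a.

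**Figure D5:**
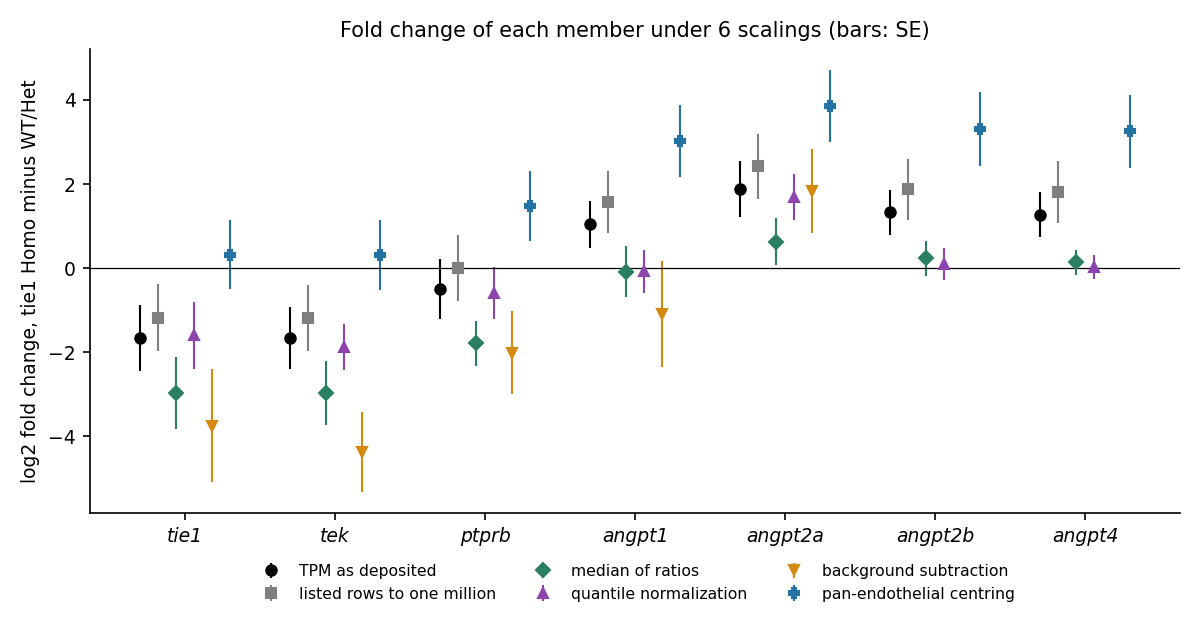
Log2 fold change (mutants minus siblings) of the 7 members with its SE (bars) for the TPM as deposited and under 5 other scalings; angpt2b and angpt4 have no value after background subtraction because they fell under the filter. The receptors are negative under every scaling but the pan-endothelial one (0.32 and 0.31), and angpt2a is positive under all 6, between 0.62 and 3.86.

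Other genes of the pathway were read from 6 lists of 122 symbols, of which 107 were found and 105 were tested. Of these, 57 (54.3%) were called higher and 5 (4.76%) lower in the mutants, against 44.6% and 4.43% of all tested genes and 58.2% called higher among genes under 10 TPM. These counts were not tested against that background, and 55 of the 57 did not reach the limit of any library. The 5 that fell all exceeded the limit in each sibling library. Leaving out 1 library changed these counts: they were 2 higher and 4 lower without mutant replicate 1, 1 and 2 without mutant replicate 2, 0 and 0 without sibling replicate 1, and 62 and 1 without sibling replicate 2. Of the 27 called genes among the 40 named below, 5 kept their call without mutant replicate 1, 3 without mutant replicate 2, 0 without sibling replicate 1 and 22 without sibling replicate 2.

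Among angiopoietin-like genes, which encode secreted relatives of the ligands that do not bind Tie receptors in the classical way, 2 of 7 tested genes were called higher and 1 was called lower. The shares called, 28.6% higher and 14.29% lower, stand beside 44.6% and 4.43% of all tested genes. The list had a median log2 fold change of 0.87, against 1.17 for all genes. The abundant member angptl4, an inhibitor of lipoprotein lipase, fell to 35.3 and 22.8 TPM in the mutants, against 163 and 130 TPM in the siblings (log2 fold change -2.32, SE 0.90, adjusted p-value 0.0302 by limma). It was above the limit in all 4 libraries. The genes angptl1a and angptl2a rose, each under the limit in every library. Of the other abundant members, angptl7 had 7.69 and 8.88 TPM in mutants and 9.65 and 21.2 TPM in siblings, and angptl2b had 8.06 and 11.8 TPM in mutants and 2.05 and 9.07 TPM in siblings, and neither passed.

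Of 9 tested genes for integrins that can bind angiopoietins and for the ADAM proteases that shed receptor ectodomains, 3 were called higher and the other 6 did not pass. The share called higher was 33.3%, against 44.6% of all tested genes. The median log2 fold change of this list was 0.86. The integrin genes itgb3b, itgb3a and itgb1a rose, each under the limit in every library, with log2 fold changes from 1.34 to 1.55, that of itgb1a being 0.87 without mutant replicate 2. The protease gene adam10a had 16.8 and 23.4 TPM in mutants and 39.2 and 20.6 TPM in siblings, adam17a had 19.5 and 10.6 TPM in mutants and 6.51 and 10.5 TPM in siblings, and the integrin gene itga5 had 11.4 and 15.7 TPM in mutants and 7.41 and 11.2 TPM in siblings. None of the last 3 passed the threshold. The gene svep1, whose product binds Tie1 in zebrafish, was not analysed here.

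Of 14 tested genes for cytoplasmic adaptors and enzymes that bind active Tie receptors, 5 were called higher and 1 was called lower. These are 35.7% and 7.14% of the list, against 44.6% and 4.43% of all tested genes. The median log2 fold change of the list was 0.46. The gene dok2, which encodes a docking protein recruited to Tek, rose to 37.9 and 12.4 TPM in the mutants, against 2.44 and 3.59 TPM in the siblings (log2 fold change 2.52, SE 0.60, adjusted p-value 0.00225 by limma). It exceeded 99.3% of the fold changes of all genes, and it was above the limit only in mutant replicate 1. In mammals dok2 is also a gene of blood cells. The 8 myeloid markers summed to 159 and 99.2 TPM in the mutants and to 518 and 509 TPM in the siblings. Of these markers, 3 and 2 were above the limit in mutants and 6 and 6 in siblings. None of them was at 0, as held for most listed genes. Their part in the dok2 values was not tested. The SH2 and SH3 adaptor gene nck1b fell to 24.0 and 11.4 TPM in the mutants, against 60.9 and 86.6 TPM in the siblings (adjusted p-value 0.0341 by limma). Its paralogue nck1a had 127 and 16.2 TPM in mutants and 139 and 184 TPM in siblings and did not pass, the mutant libraries being far apart. The adaptor gene grb2b had 71.6 and 21.1 TPM in mutants and 33.4 and 50.2 TPM in siblings. The genes ptpn11b, of a phosphatase that binds activated receptors, tnip2, of a Tek-binding inhibitor of NF-kB signalling, and rasa1a and rasa1b, of Ras GTPase activators, rose under the limit in all 4 libraries.

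Of 14 tested genes of PI3K, Akt and FoxO, 4 were called higher and 1 lower, with a median log2 fold change of 0.62. These are 28.6% and 7.14% of the list, against 44.6% and 4.43% of all tested genes. The PI3K regulatory subunit gene pik3r3a fell to 8.38 and 11.8 TPM in the mutants, against 59.7 and 30.8 TPM in the siblings (log2 fold change -2.002, SE 0.75, adjusted p-value 0.0271 by limma). It was under the limit in both mutant libraries. The kinase gene akt3a rose to 15.0 and 16.9 TPM in the mutants, against 2.98 and 5.65 TPM in the siblings (adjusted p-value 0.0213 by limma), and was above the limit only in mutant replicate 1. The genes pik3cd, pik3r3b and foxo1b rose under the limit in every library, although foxo1b turned to -0.09 on quantile normalization. The gene foxo1a, of the transcription factor downstream of Tek, had 10.03 and 13.2 TPM in mutants and 10.9 and 9.34 TPM in siblings. Its log2 fold change of 0.17 (SE 0.64, adjusted p-value 0.825 by limma) left the groups overlapping. The regulatory subunit gene pik3r1, with 19.0 and 12.2 TPM in mutants and 18.3 and 14.8 TPM in siblings, and the catalytic subunit gene pik3cb, with 23.3 and 45.4 TPM in mutants and 22.7 and 27.5 TPM in siblings, overlapped as well.

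Of 4 tested genes for receptor phosphatases of the same structural type as ptprb, ptprja and ptprq were called higher, both under the limit in every library. That is 50.0% of the list, against 44.6% of all tested genes. The gene ptprh had 16.9 and 22.7 TPM in mutants and 5.77 and 8.27 TPM in siblings, above the limit in all 4 libraries, and did not pass (log2 fold change 1.38, SE 0.66, adjusted p-value 0.0660 by limma). In all 4, ptpro included, both mutant values lay above both sibling values, as they did for 65.8% of all tested genes, and unlike those of ptprb.

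Of the 57 receptor tyrosine kinase genes tested besides tie1 and tek, 41 (71.9%) were called higher, each under the limit in all 4 libraries, and 2 (3.51%) were called lower. Among all tested genes 44.6% were called higher and 4.43% lower, and among those under 10 TPM 58.2% higher. The list had a median log2 fold change of 1.34. Both genes that fell encode VEGF receptors of endothelial cells, whose direction was like that of tek. The gene kdrl, whose promoter drives the EGFP reporter of the sort, fell to 322 and 47.2 TPM in the mutants, against 952 and 1009 TPM in the siblings (log2 fold change -2.97, SE 0.95, adjusted p-value 0.0161 by limma). Its log2 fold change was -4.35 without mutant replicate 1 and -1.60 without mutant replicate 2, and its call was lost without sibling replicate 1 (adjusted p-value 0.272) and without sibling replicate 2 (0.224). The gene flt4, of the receptor for the lymphatic growth factor Vegfc, fell to 11.2 and 15.8 TPM in the mutants, against 70.5 and 39.5 TPM in the siblings (adjusted p-value 0.0378 by limma). Both mutant values of flt4 were under the limit of their library. Its log2 fold change stood at 0.07 on pan-endothelial centring. The venous ephrin receptor gene ephb4a had 20.4 and 14.6 TPM in mutants and 58.5 and 55.5 TPM in siblings and did not pass (adjusted p-value 0.0717 by limma). The gene flt1, of a VEGF receptor that can act as a decoy, had 10.5 and 15.8 TPM in mutants and 7.11 and 14.3 TPM in siblings. The genes epha4b, ntrk2a, fgfr1b, ddr2a, ddr1 and ret had the smallest adjusted p-values of the 41 and rose with log2 fold changes from 1.67 to 2.15.

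The genes whose levels over the 4 libraries were most like those of tie1 were found by Euclidean distance of log2(TPM + 1) among genes of at least 10 TPM. They were smad6b (inhibitory Smad), herpud1 (protein degradation at the endoplasmic reticulum), rfc4 (replication factor), ddb2 (DNA damage recognition) and myd88 (Toll receptor adaptor), at distances of 0.18 to 0.28. The closest, smad6b, had 16.8 and 10.4 TPM in mutants and 54.2 and 29.7 TPM in siblings. For tek they were rbck1 (ubiquitin ligase), snx18a (sorting nexin), csnk1db (casein kinase), narf and cant1b (nucleotidase), at distances of 0.16 to 0.31. The closest, rbck1, had 8.85 and 10.1 TPM in mutants and 50.9 and 24.7 TPM in siblings. With 4 libraries, such likeness says only that these levels nearly coincide.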

How the data were processed

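RNA was sequenced from sorted kdrl:EGFP and lyve1:DsRed double positive cells, with SMART-Seq v4 amplification followed by NEBNext Ultra II Directional library preparation (per the labels). For each of the 4 libraries the authors deposited TPM, the unit being named in the file headers. The submitters' processing notes name Trim Galore 0.6.6, cutadapt 2.8, HISAT2 2.2.1, SAMtools 1.7, StringTie 2.1.4 and the build GRCz11; the annotation, the strand setting and any filter are not given in the sources used here. TPM keeps no record of depth, so depth is unknown and no counting interval is given.

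Groups came from the sample titles. Nothing says whether replicates came from separate clutches, so the spread between these libraries may be technical. The limma p-values of the comparison below rest on that spread taken over genes of like level, not on each gene's own replicates. Mutants were compared with siblings by limma 3.58.1 (R 4.3.3) on log2(TPM + 1), with no covariate besides group, for 28301 genes with a mean of at least 1 TPM, with an intensity trend in eBayes, two-sided tests and Benjamini-Hochberg adjustment over all genes. Fold changes on this scale understate those of low genes. The fit has 2 residual degrees of freedom and infinite prior degrees of freedom, so moderation replaced each gene's variance by the trend. Several alternative fits did not share this: with no filter the prior degrees of freedom were 3.78, so each gene's own variance also counted. Fits without 1 library assume that a lone library varies like the others. In such fits a call can be lost while the fold change stays, as for tek without either mutant library. As a check of the code, the fit was run on simulated data with no overall shift between the groups, unlike these libraries. That check says nothing about the calls made here. The members and lists were chosen with earlier results of these data known, and the ratio of angpt2a to angpt1, the split at 10 TPM and the 3 overlapping genes were added after the data were seen. Named pathway genes were the 3 most abundant and up to 6 called genes of each list, with foxo1a, kdrl, flt1 and flt4 in any case; svep1, also in that rule, was not analysed here. Gene names, and the positions that gave the overlapping genes, were taken from RefSeq on the assembly GRCz12tu, which is not the build named for these libraries. Some genes are not reported here. No 2 libraries were identical.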

Additional observations from a re-analysis of the deposited data

How the results depend on the processing

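The counts of calls depended on the scaling, on the settings of the fit and on single libraries. Over all genes 12618 were called higher and 1255 lower in the mutants. These became 41 and 5 with no filter on low values, 0 and 0 with the median of ratios, quantile normalization or background subtraction (279 higher and 2725 lower at an unadjusted limma p under 0.05 for the last), 23410 and 45 with pan-endothelial centring, and 8103 and 1986 with no intensity trend. The lower calls numbered 706 with the listed rows rescaled to 1000000. The weight of the variance trend also differed between these fits. Its prior degrees of freedom were infinite in the main fit and 3.78 with no filter. They were 2.95 with the median of ratios, 2.98 with quantile normalization and 3.41 after background subtraction. With no filter the log2 fold change of tek was -1.67, the same as in the main fit. Leaving out 1 library gave 460 to 14087 higher and 66 to 1723 lower calls.

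The 3 members called higher became 0 with no filter, with the median of ratios, with quantile normalization and after background subtraction, and 1 with no intensity trend, while leaving out 1 library gave 0 to 4. The 1 member called lower became 0 in the same 4 settings, with the rescaled rows and with pan-endothelial centring, and 2 with no intensity trend, where tie1 passed (log2 fold change -1.66, limma adjusted p-value 0.0353). Leaving out 1 library gave 0 to 1. The tie1 fold change was -2.14 to -1.19 without 1 library and 0.32 with pan-endothelial centring. The call of tek was lost with no filter (-1.67, adjusted p-value 0.0835), the median of ratios (-2.97, 0.187), quantile normalization (-1.87, 0.392), rescaled rows (-1.20, 0.170) and background subtraction (-4.38, 0.0903), and its sign turned with pan-endothelial centring (0.31, 0.733). Without 1 library tek was -2.18 to -1.16. For angpt1 the sign turned with the median of ratios (-0.088), quantile normalization (-0.079), background subtraction (-1.10) and without sibling replicate 1 (-0.018, the range without 1 library being -0.018 to 2.104), and for ptprb with pan-endothelial centring (1.49). The pathway genes called higher, 57, became 0 with no filter, both between-library scalings and subtraction, 91 with pan-endothelial centring and 30 with no trend, and 0 to 62 without 1 library. Those called lower, 5, became 0 in the same 4 settings and with pan-endothelial centring, and 2 with rescaled rows, and 0 to 4 without 1 library. The cause of these changes was not tested.

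Named pathway genes changed sign as follows. With pan-endothelial centring these were angptl7 (1.25), adam10a (1.48), nck1a (0.20), grb2b (1.91), pik3r1 (1.88), ephb4a (0.31) and flt4 (0.067). With the median of ratios they were angptl2b (-0.21), adam17a (-0.53), itga5 (-0.76), pik3cb (-0.97), foxo1a (-1.10) and flt1 (-0.95). With quantile normalization they were angptl2b (-0.20), adam10a (0.28), grb2b (0.69), foxo1b (-0.087) and foxo1a (-0.31). After background subtraction they were angptl2b (-0.98), adam17a (-0.88), itga5 (-0.61), foxo1a (-1.50) and flt1 (-0.98). With rescaled rows they were adam10a (8.6e-04), grb2b (0.44) and pik3r1 (0.40). Without 1 library grb2b ranged from -0.93 to 0.79, pik3r1 from -0.40 to 0.19, pik3cb from -0.095 to 0.84, foxo1a from -0.0098 to 0.35 and flt1 from -0.14 to 0.78. The ratio of tie1 to tek turned to -0.032 with a pseudocount of 5 and ranged from -0.37 to 0.39 without 1 library.

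The labels give libraries of the same number nothing else in common, and whether they share a batch is not known. The deviations of number 1 from number 2 in mutants and siblings correlated with r = 0.130 across genes. With a replicate block 15263 genes were called higher and 666 lower, and of the members angpt4 alone was called (1 higher, 0 lower). The log2 fold change of tek stayed -1.67 with an adjusted p-value of 0.0731, and of the pathway genes 65 were called higher and 0 lower. Depth is unknown, so what it limits cannot be stated.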

Other observations

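Marker genes of the sorted cell type and of other cell types, which do not belong to the Tie system, also differed between the groups. The 10 venous and lymphatic markers summed to 1147 and 410 TPM in the mutants and to 2913 and 2309 TPM in the siblings. Of these, 4 were called lower and 1 higher by limma. Over all tested genes 4.43% were called lower and 44.6% higher, and among genes of at least 10 TPM 15.4% and 9.87%. The 15 ribosomal protein genes summed to 5195 and 2179 TPM in the mutants and to 14011 and 10683 TPM in the siblings. In all 15 both mutant values lay below both sibling values, as in 12.0% of all tested genes and 41.4% of those of at least 10 TPM. The 7 erythroid markers summed to 1437 and 529 TPM in the mutants and to 3741 and 3178 TPM in the siblings, with 2 called higher and 2 lower. The 9 neural markers summed to 71.3 and 104 TPM in the mutants and to 32.5 and 38.1 TPM in the siblings. In the mutants 0 and 0 of them exceeded the limit, and in the siblings 2 and 1. Their mutant medians, 7.88 and 12.0 TPM, were near the 8.41 and 11.1 TPM of the presumed silent genes. Of these 9, 6 were called higher, and those 6 did not exceed the limit in any library. The share called higher was 44.6% over all tested genes and 58.2% among genes under 10 TPM.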
